A study of Mus musculus with 5 samples.

Results

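Macrophage identity and polarisation genes were read in RNA from MC38 tumours of mice kept at 2 temperatures. The 10 genes were chosen by symbol, as Adgre1, Csf1r, Cd68, Aif1, Mrc1, Arg1, Nos2, Il1b, Tnf and Il10, and all 10 were found among the 54113 named entries of the deposited count table. MC38 is a mouse colon adenocarcinoma line, and the tumours are labelled as colorectal cancer (CRC). The hosts were immunocompetent C57BL/6 mice with no genetic change given in the labels, and their age and sex are not labelled. The libraries of 3 tumours come from mice housed at the thermoneutral temperature of 30 °C for 2 weeks, and those of 2 tumours from mice housed at 4 °C for 2 weeks. The study asked how cold exposure alters the tumour and its stromal cells, and these genes read the macrophage part of that question at the level of RNA.

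Macrophages are tissue phagocytes that engulf dying cells and microbes and live on signals through the CSF1 receptor. They are often described along a range between classical activation by bacterial products and interferon gamma, in which they make nitric oxide and inflammatory cytokines, and alternative activation by IL-4 and IL-13, in which they use arginine through arginase and carry the mannose receptor. The spleen, the bone marrow and tumours are all rich in such cells. In RNA from whole tissue, fewer cells of a type and less RNA per cell cannot be told apart.

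Of the 10 genes, 5 had a promoter sequence in the RefSeq table for GRCm38.p6 (Mrc1, Il1b, Cd68, Aif1 and Tnf). Shown here are the 250 bases before the RefSeq start of Cd68 and Aif1, since the levels of these genes were the closest pair of the 10 across the libraries. Capitals mark GAGGAA or its reverse complement, the core letters bound by PU.1, the main transcription factor of the myeloid lineage. The Cd68 sequence is chr11:69666171-69666420 and the Aif1 sequence chr17:35176053-35176302, both on the minus strand and written 5′ to 3′. The GENCODE gene model of Aif1 starts farther upstream, so that the last 16 bases of its sequence, with the capitals, lie inside that model.
Cd68: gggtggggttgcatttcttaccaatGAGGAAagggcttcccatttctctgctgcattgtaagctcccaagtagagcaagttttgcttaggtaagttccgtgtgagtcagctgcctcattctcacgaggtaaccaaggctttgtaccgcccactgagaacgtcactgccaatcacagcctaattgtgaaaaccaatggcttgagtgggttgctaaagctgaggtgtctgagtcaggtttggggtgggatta
Aif1: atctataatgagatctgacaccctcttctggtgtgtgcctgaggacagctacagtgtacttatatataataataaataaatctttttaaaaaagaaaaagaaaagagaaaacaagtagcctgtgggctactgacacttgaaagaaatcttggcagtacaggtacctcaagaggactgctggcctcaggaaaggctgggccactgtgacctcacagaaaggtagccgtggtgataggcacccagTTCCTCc
In windows that also took in 50 bases after the start, GAGGAA on either strand was present in 28.3% of 32851 promoters, and in 4 of the 5 matched here (Mrc1, Cd68, Aif1 and Tnf). The shorter letters were searched after GAGGAAGT, a longer PU.1 sequence found in 3.20% of the promoters, had no match in the 5. The NF-kappaB motif, searched on both strands and found in 1.20% of the promoters, had no match in the 5 either. Matches are letters only, and overlaps between motifs were not removed.

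Total counts on named genes ran from 16191708 to 20320525 per library. Pancreatic acinar genes (37 in the list) took 31.2% of the counts in 30 °C replicate 2, 0.327% in 4 °C replicate 2 and at most 0.00953% in the other 3 libraries, so the CPM (counts scaled to a common library total) of every other gene are lower in 30 °C replicate 2 by that share. For each gene below whose level is listed by library, the value of 30 °C replicate 2 with the acinar counts left out of the total is given too, and all sums over marker genes leave the acinar counts out. Epithelial markers were low, with a sum of 17.2 to 173 CPM over 8 genes, and Krt19, Vil1, Cldn4 and Cdx2 each had 0 counts in at least 1 library. The highest sums, 173 and 91.3 CPM, were those of 30 °C replicate 2 and 4 °C replicate 2, the libraries with the most acinar counts. How far MC38 cells express these markers was not tested. Markers of splenic mesenchyme and red pulp summed to between 942 and 1539 CPM over 10 genes, led by Hmox1 and Slc40a1, which macrophages of many tissues express. Tlx1, a homeobox gene of the splenic mesenchyme, had 10.5 to 30.2 CPM. How this list differed between the temperatures is given below with the other cell markers. Of 30 further genes of the mononuclear phagocyte lineage, all 30 had more than 3 counts in every library, and their sum lay between 6134 and 8260 CPM, led by Lyz2 (lysozyme) and Mpeg1 (perforin-2). The libraries therefore hold macrophage transcripts. They are called tumours here as labelled, but some epithelial markers were at 0 in some libraries while splenic and pancreatic genes were present. Which tissue the macrophage transcripts come from was not tested.

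No difference between the temperatures was called for the macrophage genes. With the quasi-likelihood test of edgeR, 0 of the 10 genes had an adjusted p-value under 0.05, where 0% of the 16133 genes tested did. At an unadjusted p under 0.05 the count was 0 of 10 as well, against 6.76% of all genes. The DESeq2 Wald test called 0 of the 8 genes to which it gave an adjusted p (none for Arg1 and Il10), against 111 of 12460 genes (0.891%), and 0 of 10 at an unadjusted p under 0.05, against 4.81% of all genes. By the fitted log2 fold change, 5 of the 10 genes were lower at 4 °C, against 49.3% of all genes, and the median of the 10 was −0.057, against 0.0064 over all genes. In none of the 10 did the CPM of both tumours at 4 °C lie outside the range of the 3 tumours at 30 °C on the same side, while this was so for 16.4% of all genes (5.41% with both lower at 4 °C). Exact permutation tests (two-sided) of single genes, on CPM with the acinar counts kept in the totals, gave p-values between 0.5 and 1. The smallest p that the 10 splits of 3 tumours against 2 allow is 0.1. The p-values of edgeR and DESeq2 set the difference between the groups against the spread between these tumours, which is estimated partly from all genes.

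**Figure D1:**
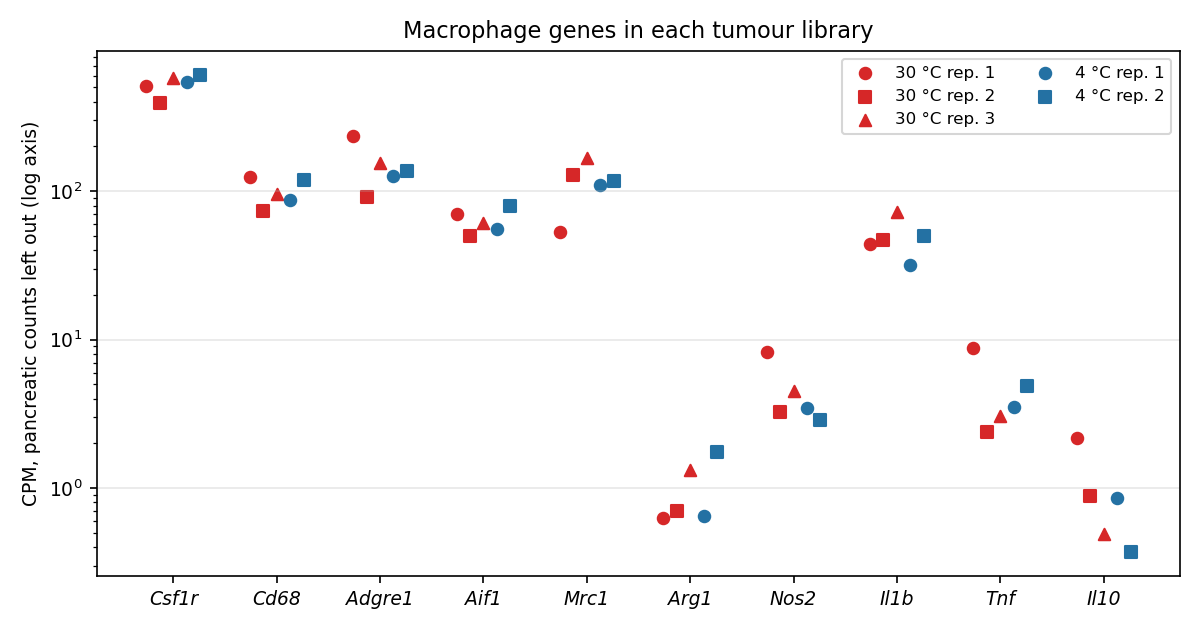
CPM of the 10 macrophage genes in each library, with the pancreatic acinar counts left out of the totals, on a log axis. Each point is 1 library, red at 30 °C and blue at 4 °C, and in every gene the colours overlap, with Csf1r highest (392 to 610 CPM) and Arg1 and Il10 below 2.5 CPM.

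Csf1r encodes the receptor for CSF1 and IL-34, on which macrophages depend for survival. It had 512, 270 and 580 CPM in the 3 tumours at 30 °C and 540 and 608 CPM in the 2 tumours at 4 °C. The low value belongs to 30 °C replicate 2 and was 392 CPM without the acinar counts, still the lowest of the 5, and the groups overlapped. The log2 fold change between 4 °C and 30 °C was 0.27 ± 0.22 (SE, 95% interval −0.25 to 0.79, edgeR adjusted p = 0.86), and it was 0.13 without 30 °C replicate 2 and also without 4 °C replicate 2. The gene lies on chromosome 18 of GRCm38 from 61100598 to 61132149, and exons of Hmgxb3 on the other strand overlap its exons, so reads of the 2 genes cannot be told apart if strand was not used in counting.

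Adgre1 encodes F4/80, the surface protein by which mouse macrophages are usually sorted. Its level was 237, 62.5 and 154 CPM at 30 °C and 126 and 136 CPM at 4 °C. Without the acinar counts, the tumours at 30 °C differed from each other 2.61-fold, from 90.8 CPM in replicate 2 to 237 CPM in replicate 1, and the tumours at 4 °C differed 1.09-fold and lay between them. The fitted difference on the log2 scale was −0.25 ± 0.38 (SE, 95% interval −1.17 to 0.68, edgeR adjusted p = 0.92). It was −0.54 without 30 °C replicate 2 and turned to 0.16 without 30 °C replicate 1.

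Cd68 encodes macrosialin, a glycoprotein of the lysosome membrane in phagocytes. It had 125, 50.4 and 95.03 CPM at 30 °C and 87.3 and 118 CPM at 4 °C, so that both cold values lay inside the range at 30 °C. The value of 30 °C replicate 2 was 73.2 CPM without the acinar counts, still the lowest. Its log2 fold change was 0.12 ± 0.28 (SE, 95% interval −0.55 to 0.80, edgeR adjusted p = 0.95), −0.051 without 30 °C replicate 2, −0.17 without 4 °C replicate 2 and 0.36 without 30 °C replicate 1.

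Aif1 encodes IBA1, a calcium-binding protein of the macrophage cytoskeleton and the antigen that the study stained in tumour sections. Its level was 69.9, 34.2 and 61.5 CPM at 30 °C and 55.4 and 79.2 CPM at 4 °C. The highest and the second lowest value were those of the 2 tumours at 4 °C, also with 49.8 CPM for 30 °C replicate 2 without the acinar counts. Between the groups, the log2 difference was 0.21 ± 0.24 (SE, 95% interval −0.38 to 0.80, edgeR adjusted p = 0.89), and it was −0.13 without 4 °C replicate 2. The 4 identity genes thus gave intervals that reach a change of at most 1.17 on the log2 scale in either direction, and narrower than that for Csf1r, Cd68 and Aif1.

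Mrc1 encodes the mannose receptor CD206, which marks alternatively activated and many resident macrophages and is also made by sinusoidal endothelium. It had 53.4, 88.5 and 168 CPM at 30 °C and 111 and 117 CPM at 4 °C. The tumours at 30 °C differed 3.15-fold without the acinar counts, which put replicate 2 at 129 CPM, and both tumours at 4 °C lay between them. The log2 fold change was 0.022 ± 0.43 (SE, 95% interval −1.02 to 1.07, edgeR adjusted p = 0.99), and it ran from −0.32 without 30 °C replicate 1 to 0.35 without 30 °C replicate 3. Among the endothelial markers, Lyve1 had between 9 and 59 counts in a library and was highest in 30 °C replicate 2. After TMM scaling, the library scaling used with edgeR, Stab2 ran from 73.5 CPM in 30 °C replicate 1 to 154 CPM in 30 °C replicate 3, where Mrc1 was highest too. Of the 2 leading endothelial markers, Pecam1 was highest in 30 °C replicate 3 (175 CPM) and Plvap in 4 °C replicate 2 (317 CPM). The part of endothelial cells in the Mrc1 level was not tested.

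Arg1 encodes arginase 1, which splits arginine into ornithine and urea and marks alternative activation in mice. Its counts were 11, 8 and 27 at 30 °C and 12 and 28 at 4 °C, or 0.629, 0.484 and 1.33 CPM against 0.645 and 1.73 CPM. The 2 highest values were those of 4 °C replicate 2 and 30 °C replicate 3, and 30 °C replicate 2 had 0.703 CPM without the acinar counts. For the lowest count the exact 95% Poisson interval, which covers counting error only, was 0.209 to 0.953 CPM. On the log2 scale, the tumours at 4 °C differed by 0.46 ± 0.61 (SE, 95% interval −1.01 to 1.93, edgeR adjusted p = 0.91), and the value was −0.46 without 4 °C replicate 2 and 1.04 without 4 °C replicate 1.

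Nos2 encodes inducible nitric oxide synthase, the enzyme of classical activation that uses the same arginine. It had 8.24, 2.24 and 4.53 CPM at 30 °C and 3.44 and 2.84 CPM at 4 °C. The value of 30 °C replicate 1 stood above the other 4, and that of 30 °C replicate 2 was 3.25 CPM without the acinar counts, between the 2 tumours at 4 °C. The fitted log2 difference was −0.73 ± 0.47 (SE, 95% interval −1.85 to 0.40, edgeR adjusted p = 0.82), which was the smallest adjusted p of the 10, and −0.25 without 30 °C replicate 1. Counts of Nos2 per count of Arg1 were 13.1, 4.63 and 3.41 at 30 °C and 5.33 and 1.64 at 4 °C, and they overlapped between the groups.

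Il1b encodes interleukin-1 beta, a cytokine of activated monocytes, macrophages and neutrophils. Its level was 43.9, 32.3 and 71.8 CPM at 30 °C and 31.8 and 49.6 CPM at 4 °C, highest in 30 °C replicate 3. Without the acinar counts 30 °C replicate 2 had 47.0 CPM, and the groups overlapped. Between the temperatures, the log2 fold change was −0.35 ± 0.30 (SE, 95% interval −1.08 to 0.37, edgeR adjusted p = 0.86), and it ran from −0.77 without 4 °C replicate 2 to −0.041 without 4 °C replicate 1. Exons of the antisense gene Il1bos overlap Il1b, and the strand setting of the counting is not given in the sources used here.

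Tnf encodes tumour necrosis factor, made by activated macrophages and lymphocytes. It had 8.75, 1.63 and 3.05 CPM at 30 °C and 3.49 and 4.88 CPM at 4 °C. The tumours at 30 °C differed 3.69-fold without the acinar counts, with replicate 1 the highest of the 5 libraries and replicate 2, at 2.37 CPM, the lowest. The edgeR fit gave a log2 fold change of −0.14 ± 0.62 (SE, 95% interval −1.63 to 1.35, edgeR adjusted p = 0.97), and it was −0.46 without 30 °C replicate 2 and turned to 0.68 without 30 °C replicate 1 and to 0.11 without 4 °C replicate 1.

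Il10 encodes interleukin-10, which restrains macrophage activation and comes from macrophages and from several lymphocytes. Its counts were 38, 10 and 10 at 30 °C and 16 and 6 at 4 °C, or 2.17, 0.605 and 0.492 CPM against 0.860 and 0.371 CPM. The highest value was that of 30 °C replicate 1, and 30 °C replicate 2 had 0.879 CPM without the acinar counts. For the lowest count the Poisson interval was 0.136 to 0.807 CPM. The fitted log2 value was −0.90 ± 0.78 (SE, 95% interval −2.77 to 0.98, edgeR adjusted p = 0.86), the lowest of the 10, and it ran from −1.59 without 4 °C replicate 1 to −0.052 without 30 °C replicate 1.

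**Figure D2:**
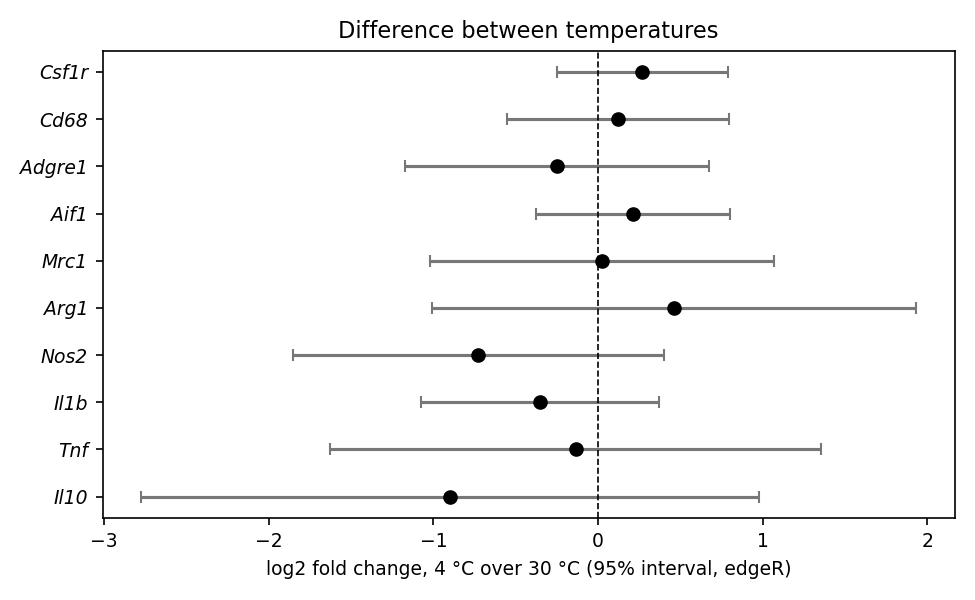
Log2 fold change of each macrophage gene between 4 °C (n = 2) and 30 °C (n = 3), with 95% intervals from the edgeR fit. All 10 intervals include 0, and those of Arg1, Tnf and Il10 are the widest.

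Per kilobase of exon, which allows levels of different genes to be compared, the order by the median over the 5 libraries without acinar counts was Csf1r (93.5 CPM per kb), Cd68 (75.6), Adgre1 (42.1), Aif1 (40.1), Il1b (24.6), Mrc1 (18.4), Tnf (2.13), Nos2 (0.779), Il10 (0.656) and Arg1 (0.316). The ranges of neighbours in this order overlapped, except for Mrc1, which lay between 8.38 and 26.4 CPM per kb, against 1.45 to 5.34 for Tnf. Nos2, Il10 and Arg1 overlapped one another, with ranges of 0.646 to 1.87, 0.284 to 1.66 and 0.282 to 0.779 CPM per kb. On GRCm38, these exons lie in genes at chr11:69664213-69666153 (Cd68), chr17:57358691-57483527 (Adgre1), chr17:35170991-35176068 (Aif1), chr2:14229392-14332057 (Mrc1) and chr10:24915221-24927484 (Arg1). Nos2 is at chr11:78920787-78960254, Il1b at chr2:129364570-129371139, Tnf at chr17:35199381-35202007 and Il10 at chr1:131019845-131024974, and all 10 are protein-coding. The identity genes and Mrc1 were thus well above the enzymes and Il10, and the cytokine Il1b stood at the level of Mrc1.

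The tumours at 30 °C differed from each other in which genes were high. After TMM scaling, 30 °C replicate 1 had the highest level of 5 of the 10 genes (Adgre1, Cd68, Nos2, Tnf and Il10) and the lowest of 2 (Mrc1 and Arg1). Its deviation from the mean of each gene over the 5 libraries was 1.47 for Il10, 1.12 for Tnf, 1.00 for Nos2 and 0.75 for Adgre1 on the log2 scale, against −1.02 for Mrc1. In 30 °C replicate 2, 5 of the 10 genes were at their lowest. Counts of Mrc1 per count of Adgre1 were 0.225 in 30 °C replicate 1, 1.42 and 1.09 in replicates 2 and 3, and 0.881 and 0.861 in the tumours at 4 °C. This ratio needs no scaling between libraries and was lowest in 30 °C replicate 1.

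**Figure D3:**
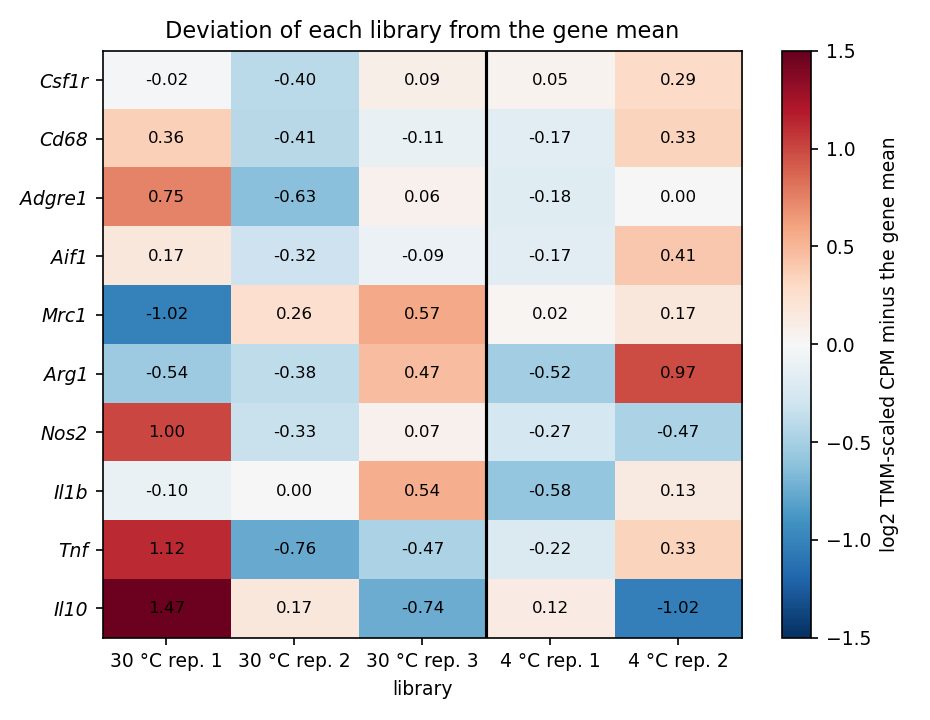
Deviation of each library from the mean of the gene over all 5, in log2 TMM-scaled CPM, with red above and blue below the mean. The column of 30 °C replicate 1 holds the strongest contrasts, from 1.47 for Il10 to −1.02 for Mrc1.

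Likeness between genes was measured as the root mean square difference of their log2 CPM over the 5 libraries, each gene centred on its mean, with smaller values for more alike. Among the 10 genes, Cd68 and Aif1 were closest (0.101), followed by Csf1r and Aif1 (0.167) and Csf1r and Cd68 (0.216). Mrc1 stood farthest from Il10 (1.27), and Arg1 was next from Il10 (1.26). Of all 16133 genes tested, those nearest to Csf1r were Ctss (0.031) and H2-D1 (0.035), to Cd68 P2ry6 (0.027) and Fam118b (0.029), to Aif1 Fastkd5 (0.029) and Jup (0.038), and to Adgre1 Map1a (0.078) and Slc11a1 (0.090). Nos2 was nearest to Il1rn (0.076) and Mgat5 (0.080), and Il1b to Ceacam16 (0.039) and Trim6 (0.12). For Mrc1, Arg1 and Il10 the nearest genes were farther away, at 0.089 (1010001N08Rik), 0.11 (Ighv1-39) and 0.17 (Gm42047).

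Genes around these 10 were read from lists for the phagocyte lineage, the CSF1 receptor pathway, both forms of activation, arginine use and the receptors and processing of IL-1, TNF and IL-10. None of the genes tested in these lists had an adjusted p under 0.05 by edgeR. Of 28 lineage genes tested, 2 were lower and 1 was higher at 4 °C at an unadjusted p under 0.05, against 4.17% lower and 2.58% higher of all genes. With each library left out in turn, the past-threshold share of all genes ran from 3.18% to 9.36%, which the counts under such omissions below are to be read against. Timd4, a receptor for phosphatidylserine on resident macrophages, had 50.3, 34.96 and 57.3 CPM at 30 °C and 81.2 and 86.5 CPM at 4 °C, with both cold tumours above all 3 others, also with 50.8 CPM for 30 °C replicate 2 without the acinar counts. Its log2 fold change was 0.72 ± 0.16 (SE, edgeR adjusted p = 0.69), and the DESeq2 Wald test called it (adjusted p = 0.033). Ccr2, the chemokine receptor of inflammatory monocytes, had 63.1, 65.2 and 46.4 CPM at 30 °C and 32.8 and 37.6 CPM at 4 °C (30 °C replicate 2 at 94.8 CPM without the acinar counts), a log2 fold change of −0.91 ± 0.34 (SE, edgeR adjusted p = 0.71) that was −0.59 without 30 °C replicate 2. Ly6c2, the surface antigen of the same monocytes, was at −0.81 ± 0.27 (SE, edgeR adjusted p = 0.69). Over the 5 omissions of a library, between 0 and 4 lineage genes were lower and 1 or 2 higher at that unadjusted threshold, and the median of the list, −0.035, ran from −0.34 without 4 °C replicate 2 to 0.25 without 30 °C replicate 1.

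Among 9 tested genes of the CSF1 receptor pathway, 1 was past the unadjusted threshold. This was Csf1, a ligand of Csf1r, with 62.8, 26.7 and 57.5 CPM at 30 °C and 102 and 80.0 CPM at 4 °C and no overlap between the groups, also with 38.9 CPM for 30 °C replicate 2 without the acinar counts. Its log2 fold change was 0.82 ± 0.24 (SE, 95% interval 0.25 to 1.40, edgeR adjusted p = 0.69). Il34, the other ligand, had a value of 0.75 ± 0.38 (SE) and Csf2rb, a receptor chain for GM-CSF, IL-3 and IL-5, one of −0.63 ± 0.29 (SE). Il34 overlapped between the groups, while Csf2rb overlapped in CPM but not without the acinar counts, where both tumours at 4 °C were lower. On that scale the groups did not overlap for 22.8% of all genes. Without 4 °C replicate 2 the values were 0.38 for Il34 and −0.37 for Csf2rb. Between 0 and 2 genes of this list were lower and between 0 and 2 higher past the threshold over the 5 omissions.

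In the list of classical activation, 17 of 23 tested genes had a positive log2 fold change, with a median of 0.23, and 2 passed the unadjusted threshold, both higher. They were the interferon-induced chemokines Cxcl10, at 0.79 ± 0.26 (SE, edgeR adjusted p = 0.69), and Cxcl9, at 0.79 ± 0.29 (SE, edgeR adjusted p = 0.71). Cd40, the costimulatory receptor of macrophages and B cells, followed at 0.76 ± 0.32 (SE). Without 4 °C replicate 2, Cxcl9 was at 0.25. Over the 5 omissions between 0 and 5 genes of this list passed, all higher, with 0 without 30 °C replicate 2 and without 4 °C replicate 2 and 5 without 30 °C replicate 3. The list of alternative activation had a positive value in 15 of 22 genes, with a median of 0.21, and 3 passed the unadjusted threshold. Ccl22, a chemokine of dendritic cells and macrophages, had a log2 value of 0.91 ± 0.28 (SE, edgeR adjusted p = 0.69). Chil3, made by alternatively activated macrophages and by developing neutrophils, had 1231, 530 and 248 CPM at 30 °C and 195 and 218 CPM at 4 °C (30 °C replicate 2 at 770.4 CPM without the acinar counts), with a log2 fold change of −1.83 ± 0.66 (SE, edgeR adjusted p = 0.71), and Mmp9, a protease of neutrophil granules and macrophages, had one of −1.39 ± 0.50 (SE, edgeR adjusted p = 0.71). Mmp9 was at −0.80 without 30 °C replicate 1. Between 0 and 2 genes of this list were lower and between 0 and 3 higher past the threshold over the 5 omissions. Retnla, another gene of alternative activation, had between 0 and 6 counts in a library and was not tested.

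**Figure D4:**
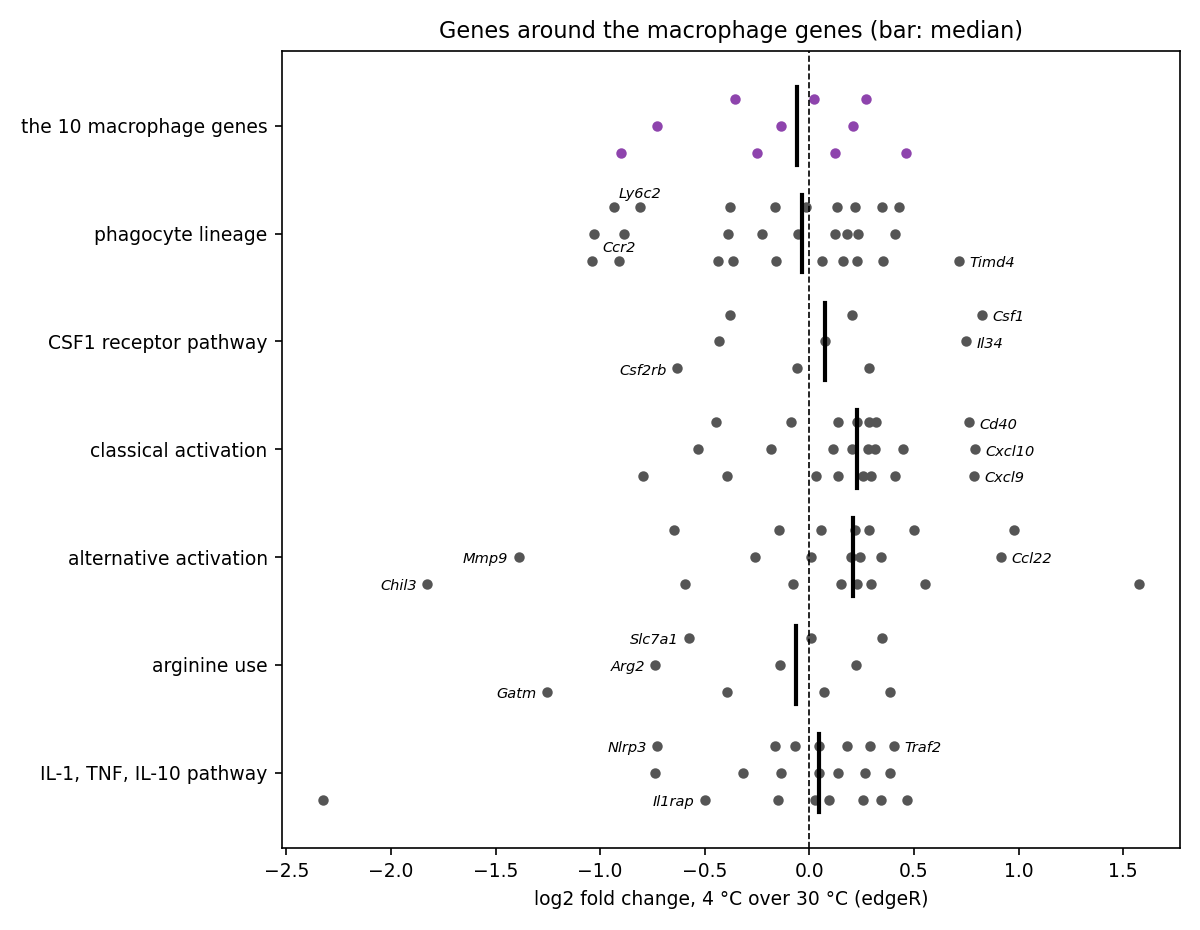
Log2 fold changes between 4 °C and 30 °C of the 10 macrophage genes (purple) and of the tested genes in the 6 lists around them (grey), with the median of each list as a bar. The 3 genes with the smallest p in each list are named, and the medians lie between −0.065 (arginine use) and 0.23 (classical activation).

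In the list of arginine use, 2 of 10 tested genes passed the unadjusted threshold, both lower at 4 °C. Gatm, which makes the creatine precursor from arginine, had a log2 fold change of −1.25 ± 0.47 (SE, edgeR adjusted p = 0.71), and Slc7a1, the main cationic amino acid transporter, one of −0.57 ± 0.22 (SE, edgeR adjusted p = 0.71). Arg2, the mitochondrial arginase, was at −0.74 ± 0.42 (SE). Gatm was at −0.72 without 30 °C replicate 2, Slc7a1 at −0.36 without 4 °C replicate 2, and Arg2 ran from −1.24 without 4 °C replicate 2 to −0.37 without 4 °C replicate 1. Over the 5 omissions between 0 and 2 genes of this list passed, all lower. Among the 22 genes of the IL-1, TNF and IL-10 list, 1 passed. Nlrp3, the sensor of the inflammasome that activates caspase-1 and so releases IL-1 beta, had 11.3, 8.41 and 14.0 CPM at 30 °C and 7.04 and 7.53 CPM at 4 °C (30 °C replicate 2 at 12.2 CPM without the acinar counts), and its log2 fold change was −0.73 ± 0.23 (SE, edgeR adjusted p = 0.69). Over the 5 omissions between 0 and 3 genes of this list passed, all lower, with 3 without 30 °C replicate 2. Il1rap, the accessory chain of the IL-1 receptor, was at −0.50 ± 0.21 (SE) and Traf2, an adaptor of TNF receptors, at 0.40 ± 0.18 (SE).

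Markers of other cells differed between the libraries, and their sums are given without the acinar counts. The 12 neutrophil markers summed to 13906, 9328 and 3376 CPM at 30 °C and to 2732 and 4223 CPM at 4 °C, with S100a9 and Ngp the most abundant. All 12 had a negative log2 fold change (median −1.36) with adjusted p-values of at least 0.69 by edgeR. In the main test 3 of the 12 passed the unadjusted threshold, against 6.76% of all genes. The median was −0.81 without 30 °C replicate 1, where 2 of the 12 passed, and −1.75 without 30 °C replicate 3, where 12 passed. Without 30 °C replicate 2 it was −1.32, and 2 passed. The number that passed thus depended strongly on which library was left out. The median was −1.06 without 4 °C replicate 1 and −1.785 without 4 °C replicate 2, fits that leave 1 tumour at 4 °C. With the replicate block the median was −1.75 and 12 of the 12 passed, against 977 of 16133 genes. The block treats same-numbered tumours as pairs, which was not established. Since 30 °C replicate 3 has no partner, it does not enter that comparison, so the block is not separate from the fit without that library. After adjustment the block called 1 of the 12, against 44 of all genes. The highest sum was in 30 °C replicate 1, where Nos2, Tnf, Il10, Adgre1, Cd68 and Chil3 were highest too. Mrc1 and Il1b were highest in 30 °C replicate 3, and Csf1r, Aif1 and Arg1 in 4 °C replicate 2. The 8 T cell markers summed to between 291 and 482 CPM at 30 °C and to 607 and 620 CPM at 4 °C. All 8 had a positive log2 fold change (median 0.81), and 5 passed the unadjusted threshold by edgeR, against 6.76% of all genes. After adjustment edgeR called 0 of the 8 and DESeq2 4, against 0% and 0.891% of all genes. The 8 B cell markers summed to between 1245 and 3542 CPM at 30 °C and to 3088 and 3833 CPM at 4 °C. All 8 were positive too (median 0.71), and 2 passed the unadjusted threshold. For the dendritic cell list of 8 genes the sums were 172 to 327 CPM at 30 °C and 261 and 326 CPM at 4 °C. Erythroblast markers, led by the globins Hbb-bs and Hba-a1, summed to 13552 to 38041 CPM and to 28999 and 35511 CPM, so that the groups overlapped. The log2 fold change was negative in 5 of the 8 (median of the list −0.56), of which 2 passed the unadjusted threshold, against 4.17% lower of all genes. It was positive in 3, among them Hbb-bs (0.44) and Hba-a1 (0.63). Fibroblast markers summed to 607 to 1219 CPM and to 683 and 1378 CPM, and endothelial markers to 598 to 890 CPM and to 683 and 843 CPM. Each neutrophil, lymphocyte, dendritic, erythroblast, fibroblast and endothelial marker had more than 3 counts in every library. The part of these cells in the levels of the macrophage genes was not tested.

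**Figure D5:**
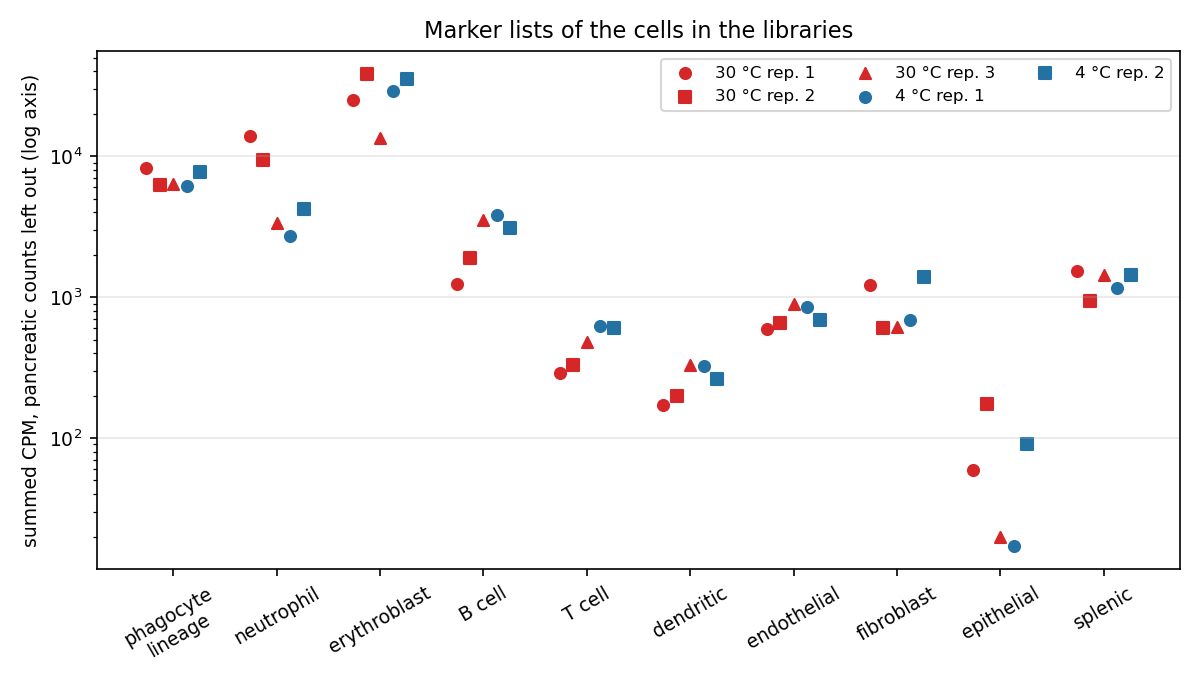
Summed CPM of marker lists in each library, with acinar counts left out of the totals, on a log axis. Neutrophil sums are highest in 30 °C replicates 1 and 2, T cell sums are highest in the 2 tumours at 4 °C, and the phagocyte lineage list varies least, from 6134 to 8260 CPM.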

How the data were processed

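RNA from 3 tumours at 30 °C and 2 at 4 °C was sequenced. The authors deposited whole-number counts of aligned reads per gene symbol, summarized with featureCounts on the Gencode vM19 annotation per the paper's methods. The submitters' processing notes also name fastp, HISAT, RSEM and GRCm38, with no role or order. The methods give 200 ng RNA for each group, and no batch is labelled. Each column was matched to a sample title. The 333 entries without a symbol (at most 0.0170% of the counts) were left out, and of 97 symbols shared by several entries the most abundant carried the symbol. The floor of 3 counts equals 0.148 to 0.185 CPM.

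With edgeR 4.0.16 (R 4.3.3), filterByExpr kept 16133 genes and all 10 members. These were scaled by TMM and compared by a robust quasi-likelihood F-test with no covariate and Benjamini-Hochberg adjustment over all genes tested. Log2 CPM for permutation tests and likeness used a prior count of 2. Fold changes are 4 °C over 30 °C. The study's own test, DESeq2 (1.42.0 here), was an alternative. The method was tested on simulated counts. Exon lengths and positions come from GENCODE M21 on GRCm38. Named genes are all 10 members, the 3 smallest p-values of each pathway list, the 2 nearest genes of each member and up to 2 leading markers of a cell type list. The nearest genes of Tnf are not reported here. Any other gene named was picked with its values in view. The members and lists were chosen with earlier results of these data known. Replicate numbers were not used to pair the samples in the main test. Alternatives were other scalings, filters and tests, the replicate block, removal of acinar genes and each library left out.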

Additional observations from a re-analysis of the deposited data

How the results depend on the processing

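Under all 14 alternatives, 0 of the macrophage genes tested passed an adjusted or an unadjusted p of 0.05, and the smallest unadjusted p was 0.065. Of 138 log2 fold changes of these genes, 9 changed sign, all when a library was left out. Csf1r, Nos2, Il1b and Il10 kept their sign, but with a library left out they ran from 0.13 to 0.38, −0.98 to −0.25, −0.77 to −0.041 and −1.59 to −0.052. Without 30 °C replicate 1 the value was 0.16 for Adgre1, −0.32 for Mrc1 and 0.68 for Tnf. Without 30 °C replicate 2 it was −0.051 for Cd68. Without 4 °C replicate 1 it was 0.11 for Tnf. Without 4 °C replicate 2 it was −0.17 for Cd68, −0.13 for Aif1, −0.067 for Mrc1 and −0.46 for Arg1. Over the 5 omissions the values ran from −0.54 to 0.16 for Adgre1, −0.17 to 0.36 for Cd68, −0.13 to 0.47 for Aif1, −0.32 to 0.35 for Mrc1, −0.46 to 1.04 for Arg1 and −0.46 to 0.68 for Tnf. With each library left out in turn, between 4 and 9 of the 10 genes were lower at 4 °C, with 9 reached without 4 °C replicate 2, and between 1 and 4 had groups that did not overlap, which fewer libraries make more common by construction. Arg1 and Il10 were not tested with a minimum of 10 counts in every library and had no adjusted p from DESeq2. Where a tumour at 4 °C was left out, the other is assumed to vary like the tumours at 30 °C.

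Over all genes, the adjusted calls were 0 in the main test, 111 with the DESeq2 Wald test, 8 with plain library totals and 44 with the replicate block, and 0 under the other alternatives. At an unadjusted p under 0.05 the count was 669 with plain library totals and between 520 (without 30 °C replicate 2) and 1477 (without 30 °C replicate 3) with a library left out, and 540 without 4 °C replicate 2. Among the 1090 main calls 38.3% were higher at 4 °C, against 49.5% with upper-quartile scaling and 48.6% with plain totals. Plain totals moved the median of all genes from 0.0064 to 0.11 and the share with a positive value from 50.7% to 62.7%. The deviations of same-numbered tumours from their group means correlated at −0.25 for number 1 and 0.27 for number 2 across genes. Around their own mean the 2 tumours at 4 °C mirror each other, so these values cannot decide whether the numbers pair the tumours. The replicate block called 0 of the 10 genes. Among the neighbouring genes the block called Chil3 (−2.22, edgeR adjusted p = 0.0030), and DESeq2 called Timd4. The block assumes that same-numbered tumours are pairs, and 30 °C replicate 3, without a partner, does not enter its comparison. What causes these changes was not tested. Low counts limit Arg1 and Il10.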
